A study of Mus musculus with 24 samples.

Results

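A set of 9 genes that mark homeostatic microglia, Tmem119, Cx3cr1, Siglech, Gpr34, Fcrls, Olfml3, Sall1, Crybb1 and Mertk, were followed across brain tissue from injured and sham-operated mice. They were taken by symbol from the deposited expression table, which lists 36333 genes, and all 9 were found and passed the filter on low values. The study used controlled cortical impact, a model of traumatic brain injury (TBI), and asked what blocking the colony-stimulating factor 1 receptor, the interleukin-1 receptor or both does to the injured brain. RNA was sequenced at 5 days post injury (dpi) from 24 male mice, 1 library per mouse. The sham group held 4 mice, and 5 injured mice each were given vehicle, PLX3397, Anakinra or both drugs. PLX3397, a CSF1R inhibitor, was given in the chow at 290 mg per kg of food from the day of surgery. Anakinra, the recombinant interleukin-1 receptor antagonist, was injected under the skin at 100 mg/kg on the day of injury and on the next 3 days. Sham mice had anesthesia and a skin incision without opening of the skull, so that the vehicle and sham groups differ in the craniotomy as well as in the impact. All mice carried the strain label C57BL6N, with ages of 12 to 16 weeks, whereas the methods name C57BL/6JRj. The label calls the tissue cortex, and the methods describe a quadrant that also holds striatum, dorsal hippocampus and thalamus.

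Microglia are the resident macrophages of the brain parenchyma and depend on CSF1R signaling for survival. In the undisturbed brain they carry a gene program that separates them from blood monocytes and other macrophages, and in single-cell studies of injury or disease individual microglia often lower this program while they gain genes of phagocytosis and lipid handling. Among the 9 genes, Cx3cr1, Gpr34 and Mertk encode receptors for signals from neurons, lysophospholipids and dying cells, Siglech and Fcrls encode immunoglobulin-family surface proteins, Tmem119 and Olfml3 encode a membrane and a secreted protein, Sall1 encodes a transcription factor of microglial identity, and Crybb1 encodes a crystallin.

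In GRCm38.p6 the genes lie on 7 chromosomes, according to RefSeq. Mertk spans chr2:128698915-128803162, Fcrls chr3:87250736-87263765 and Olfml3 chr3:103735394-103738001. Crybb1 spans chr5:112254563-112269585 and Tmem119 chr5:113793729-113800396. Siglech lies at chr7:55768154-55779448, Sall1 at chr8:89027242-89044162, Cx3cr1 at chr9:120048683-120068296 and Gpr34 at chrX:13622650-13640859.

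All 9 genes rose with injury and fell with PLX3397, as described below. The 250 bases before their RefSeq start sites were searched on both strands for motifs of myeloid regulators. The table held start sites for 7 of the 9 genes, all but Tmem119 and Gpr34, with 9 windows in all since Sall1 has 3. The core AGGAAGT of the PU.1 motif was found in 2 of the 9 windows, against 7.69% of the 32851 windows of all genes. The longer PU.1 motif GAGGAAGT, which contains this core, was in 0 of 9 windows and in 2.44% of all. The MEF2 motif (CTA and TAG with 4 bases between) was found in 1 of the 9 windows and in 3.2% of all. The composite PU.1 and IRF motif (GGAA and GAAA with 2 bases between) was in 0 of 9 windows and in 2.3% of all, and the SMAD motif CAGACA was in 3 of 9 windows and in 17.1% of all. The 3 sequences with a PU.1 core or MEF2 match are shown as stretches of 30 bases on the strand of the gene, with the match in capitals.
Cx3cr1, chr9:120068344-120068373, minus strand, MEF2 letters: gtcacagcatCTAAAGATAGggtaccacac
Fcrls, chr3:87263581-87263610, minus strand, PU.1 core on the opposite strand: acaactttgccACTTCCTttttttcctatt
Sall1, chr8:89043025-89043054, minus strand, PU.1 core: gcgcgggagttAGGAAGTtcgccgctcgcc
In the GENCODE annotation the Cx3cr1 stretch lies in the untranslated first exon of a longer transcript, the Fcrls stretch lies partly in an untranslated exon, and the Sall1 stretch lies in an intron. These matches describe the letters only.

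Expression is given in TPM, read here as transcript abundance scaled by gene length and to a library sum of 1000000. On this reading, levels of different genes can be set side by side. The methods add that the software of the authors calls this unit CPM. Tests used limma on log2(TPM + 1) over the 17267 genes that averaged 0.5 TPM or more, with 1 mean per group and p-values adjusted over all of these genes by the Benjamini-Hochberg method. A gene was called at an adjusted p below 0.05. Fold changes on this scale understate the change of genes near 1 TPM. The libraries listed 22160 to 23249 genes above 0. The vehicle mice differed among themselves in markers of other cells: summed fibroblast markers came to 90.2 TPM in J17B and 120.6 TPM in J20B, against 573.5 to 712 TPM in the other 3, and summed monocyte and neutrophil markers came to 9.2 TPM in J17B against 26.4 to 44.6 TPM in the other 4. The counts of members called were identical without J17B and without J20B. The animal numbers of the vehicle mice, and of no other group, end in the letter B, and the labels do not say why, so that anything this letter marks cannot be told apart from the vehicle group. In bulk tissue, fewer cells of a type and less RNA per cell cannot be told apart.

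After injury, all 9 genes were higher in vehicle mice than in sham mice, between 1.52-fold for Crybb1 and 11.4-fold for Fcrls. Of all genes tested, 26.6% were called higher in this comparison. The median log2 fold change of the 9 genes was 1.30, whereas that of all genes tested was -0.01. The groups did not overlap for 8 of the 9 genes, against 21.7% of all genes. The study's own criteria are a ratio of means above 2 and a difference above 4 TPM at an unadjusted threshold of 0.05. They were applied here with the p-values of limma in place of the study's own tests. By these criteria 5 genes passed (Tmem119, Cx3cr1, Gpr34, Fcrls and Olfml3), against 5.11% of all genes.

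**Figure D1:**
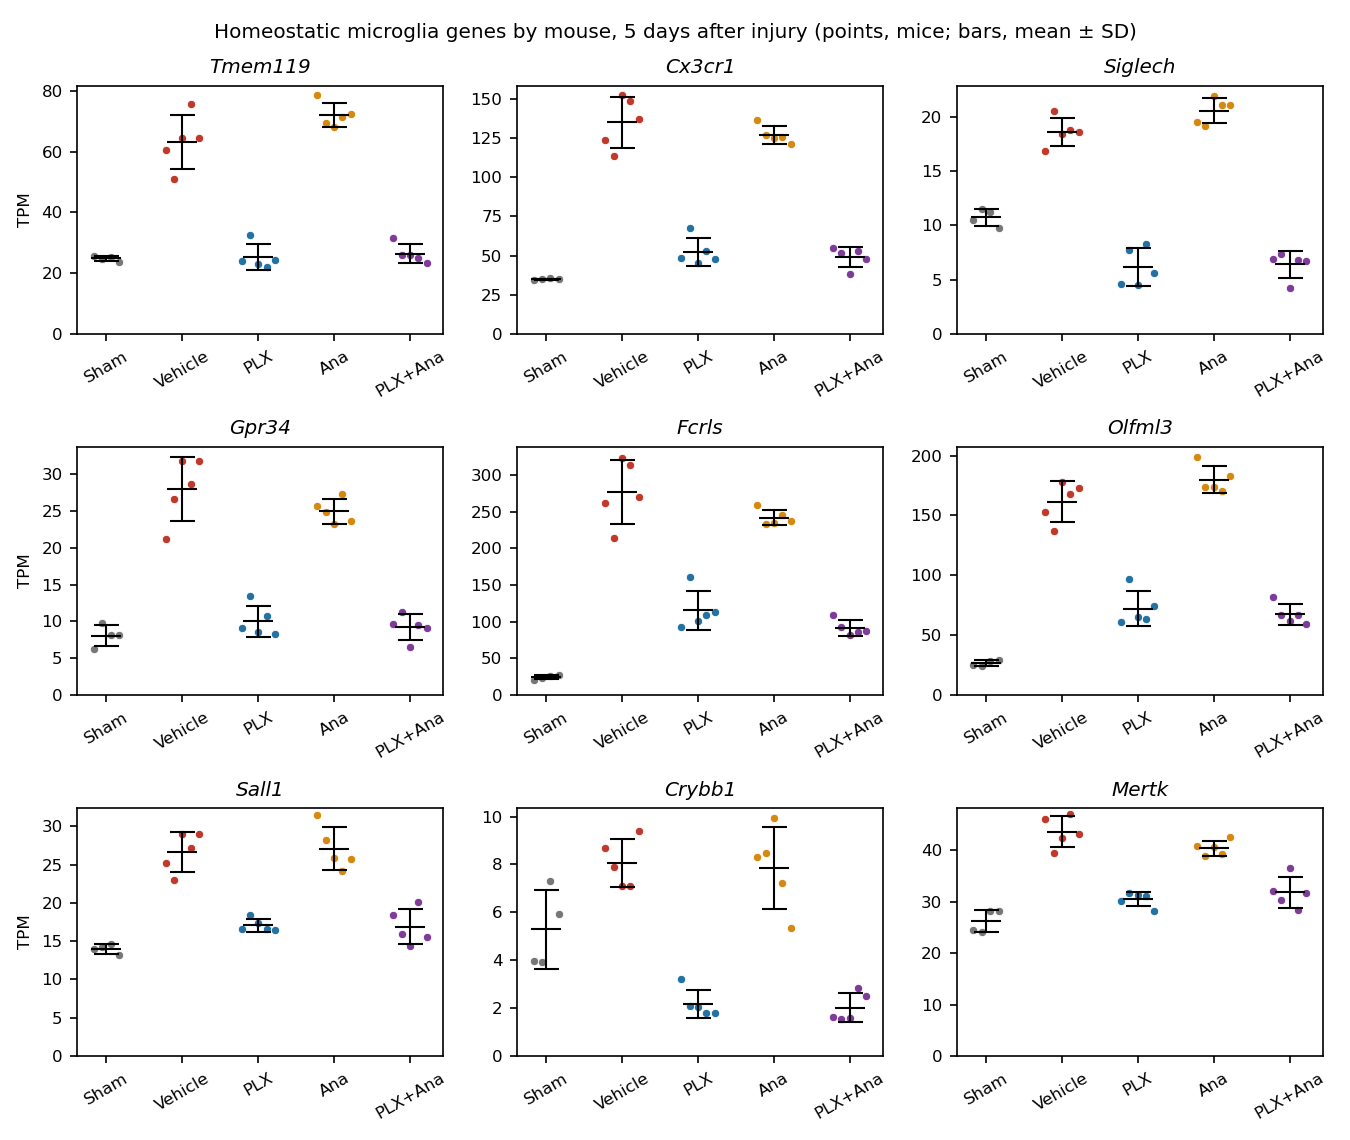
Expression of each of the 9 genes in TPM (vertical axes, starting at 0) in every mouse (points) of the 5 groups, with the mean ± SD (bars). PLX and Ana stand for PLX3397 and Anakinra. Vehicle and Anakinra mice formed the high level and the PLX3397 and PLX3397+Anakinra mice the low level of each gene, and for Siglech and Crybb1 the low level lay below the sham mice.

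Fcrls, an Fc receptor-like protein of mouse microglia, was the member that rose most. Its level was 20.4, 23.6, 25.2 and 27.6 TPM in the 4 sham mice. In the vehicle mice it was 214.5, 261.5, 270.6, 314 and 324 TPM. The lowest vehicle mouse, J17B, was still far above the highest sham mouse. The mean rose from 24.2 ± 3.0 TPM (SD, n = 4) to 277 ± 44.0 TPM (SD, n = 5). This was a log2 fold change of 3.46 (SE 0.13, adjusted p = 5.6e-17). Olfml3, a secreted olfactomedin-like glycoprotein, followed with 24.2 to 29.0 TPM in sham mice and 136.6 to 178 TPM in vehicle mice. Its mean was 6.07-fold higher after injury, a log2 fold change of 2.55 (SE 0.11, adjusted p = 7.8e-16).

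The receptors rose less than Fcrls and Olfml3. Cx3cr1, the receptor of the neuronal chemokine fractalkine, was nearly constant in sham mice, with 34.6, 34.9, 35.0 and 35.4 TPM. In vehicle mice it was 113.7, 123.8, 137, 148 and 152 TPM. All injured mice lay above all sham mice, and the mean was 3.86-fold higher (log2 fold change 1.91, SE 0.10, adjusted p = 4.9e-14). Gpr34, a receptor for lysophosphatidylserine, was 3.47-fold higher with 6.29 to 9.73 TPM in sham mice and 21.2 to 31.8 TPM in vehicle mice. Mertk, a receptor tyrosine kinase for the uptake of dying cells that astrocytes also express, was 1.67-fold higher, from 26.2 ± 2.2 to 43.7 ± 3.1 TPM. The vehicle and sham mice overlapped for neither gene.

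Tmem119, a membrane protein used to tell microglia from infiltrating macrophages, was 23.7, 24.7, 25.4 and 25.7 TPM in sham mice. In vehicle mice it was 51.2, 60.5, 64.4, 64.4 and 75.8 TPM. Every vehicle mouse was higher, and the mean difference was 2.54-fold (log2 fold change 1.30, SE 0.10, adjusted p = 4.5e-11). Sall1, a zinc finger factor that keeps microglia in their homeostatic state, rose 1.91-fold, from 13.99 ± 0.63 to 26.7 ± 2.6 TPM, again without overlap. Siglech, a sialic acid-binding lectin that signals through the adaptor encoded by Tyrobp, was 1.74-fold higher with a log2 fold change of 0.74 (SE 0.13, adjusted p = 4.4e-05).

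Crybb1, a crystallin that microglia express, was the lowest and least changed member. Its sham values were 3.92, 3.97, 5.94 and 7.30 TPM, and its vehicle values were 7.10, 7.12, 7.89, 8.70 and 9.39 TPM. Sham mouse J15 lay above the 2 lowest vehicle mice, so that the groups overlapped. The log2 fold change was 0.55 (SE 0.17, adjusted p = 0.0077).

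With PLX3397, all 9 genes were lower than in vehicle mice, against 6.66% of all genes tested. The groups did not overlap for any of the 9 genes, against 4.91% of all genes, and 7 of them, all but Sall1 and Mertk, met the study's criteria, against 0.932% of all genes. The median log2 fold change of the 9 genes was -1.30, compared with 0.01 for all genes. Vehicle mice are the shared reference of the injury and the drug comparisons, so that the rise and the fall of a gene are not independent.

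**Figure D2:**
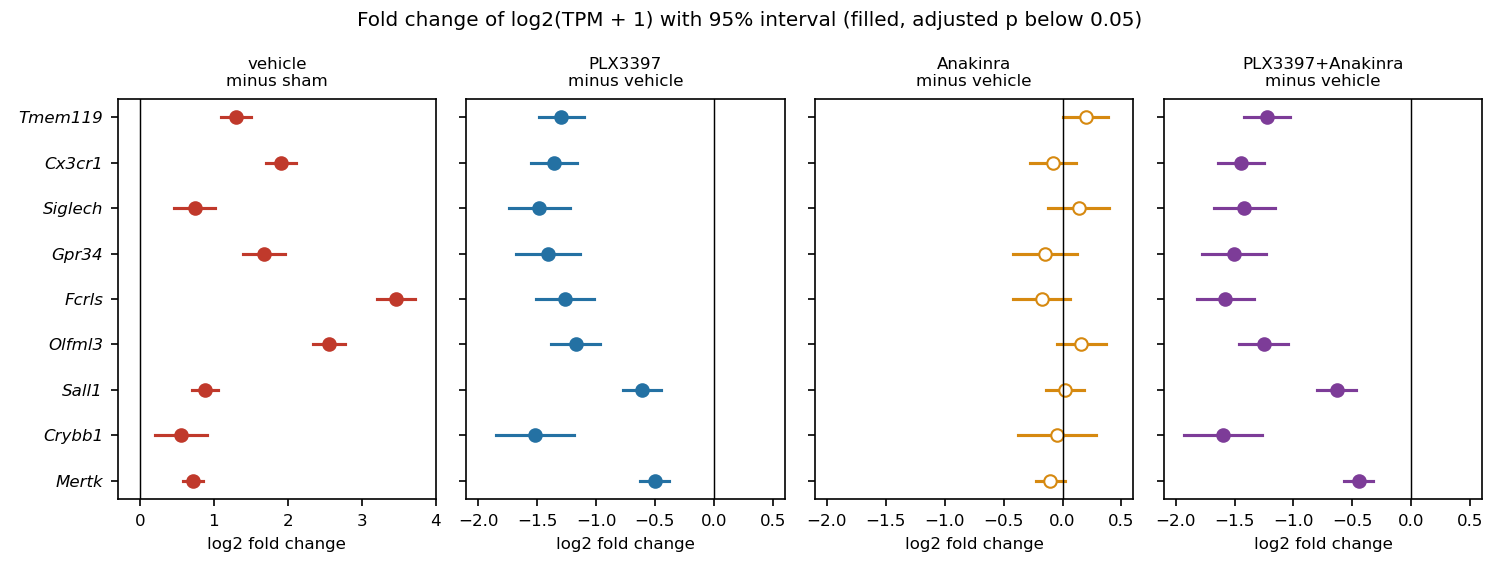
Log2 fold change of TPM + 1 (horizontal axes) with its 95% interval (lines) for the 9 genes (rows) in 4 comparisons, with filled points for an adjusted p below 0.05. The first axis has another range than the other 3. The rise with injury ran from 0.55 to 3.46, the fall with PLX3397 kept to -1.52 to -0.50, and no point was filled for Anakinra against vehicle.

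The fall was steepest for Crybb1, which stood at 3.20, 2.07, 2.06, 1.80 and 1.79 TPM in the PLX3397 mice. All 5 mice lay below every sham mouse. The mean was 3.68-fold lower than with vehicle (log2 fold change -1.52, SE 0.16, adjusted p = 2.6e-07). Siglech was 4.54, 4.64, 5.65, 7.77 and 8.31 TPM with PLX3397, whereas the vehicle mice had 16.9 to 20.5 TPM and the sham mice 9.76 to 11.5 TPM. It therefore also fell below both reference groups without overlap. Its mean was 3.01-fold lower than with vehicle (log2 fold change -1.48, SE 0.13, adjusted p = 1.4e-08).

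Fcrls fell from 277 ± 44.0 TPM with vehicle to 115.7 ± 26.9 TPM with PLX3397, a log2 fold change of -1.26 (SE 0.12, adjusted p = 4.8e-08). The PLX3397 mice had 92.3, 101, 110, 114 and 161 TPM, and mouse J02 was the highest. Despite the strong rise of Fcrls with injury, its log2 fold change with PLX3397 lay near the median of the 9 genes (-1.30). Crybb1, Siglech, Gpr34, Cx3cr1 and Tmem119 fell more on this scale, and Olfml3, Sall1 and Mertk fell less. Tmem119 had 21.96, 22.9, 24.1, 24.5 and 32.6 TPM with PLX3397. The 4 lower values lay near those of the sham mice, and J02 was above all sham mice. The Tmem119 mean was 2.51-fold lower than with vehicle (log2 fold change -1.30, SE 0.09, adjusted p = 1.3e-09).

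Cx3cr1 and Gpr34 fell to 38.8% and 35.7% of the vehicle mean, and Olfml3 to 44.5%. Their log2 fold changes were -1.36, -1.40 and -1.17. Sall1 and Mertk fell least, to 64.0% and 69.9% of the vehicle mean. The 95% intervals of their log2 fold changes, -0.78 to -0.45 for Sall1 and -0.63 to -0.38 for Mertk, lay above those of the other 7 genes, which together spanned -1.85 to -0.96. Astrocyte markers, whose cells are a second source of Mertk, were called higher for 1 and lower for 0 of 8 genes with PLX3397, with summed levels of 4563 to 5117 TPM compared with 4509 to 5688 TPM in vehicle mice. The part of other cells in the Mertk level was not tested.

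Against sham mice, the 9 genes split in 3 after PLX3397. Cx3cr1, Fcrls, Olfml3, Sall1 and Mertk stayed higher, against 22.7% of all genes called higher. Siglech and Crybb1 were lower, with log2 fold changes of -0.74 and -0.96 (adjusted p = 6.8e-05 and 5.1e-05), against 22.5% of all genes called lower. Tmem119 and Gpr34 were not called, with intervals of -0.20 to 0.21 and -0.02 to 0.56. The distance from sham was largest for Fcrls, which was still 4.79-fold higher, and for Olfml3, which was 2.70-fold higher.

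The share of the injury difference left, computed from the group means as drug minus sham in percent of vehicle minus sham, differed between the members. With PLX3397 it was 36.2% for Fcrls, 33.6% for Olfml3, 24.6% for Mertk, 24.2% for Sall1, 17.4% for Cx3cr1, 9.7% for Gpr34 and 0.94% for Tmem119. For Siglech it was -57.7% and for Crybb1 -112.7%, since both fell past the sham level. The Crybb1 value rested on single sham mice: it was -154.7% without J08, -152.9% without J07 and -71.0% without J15. The rise with injury that is the base of this share was small for Crybb1.

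**Figure D3:**
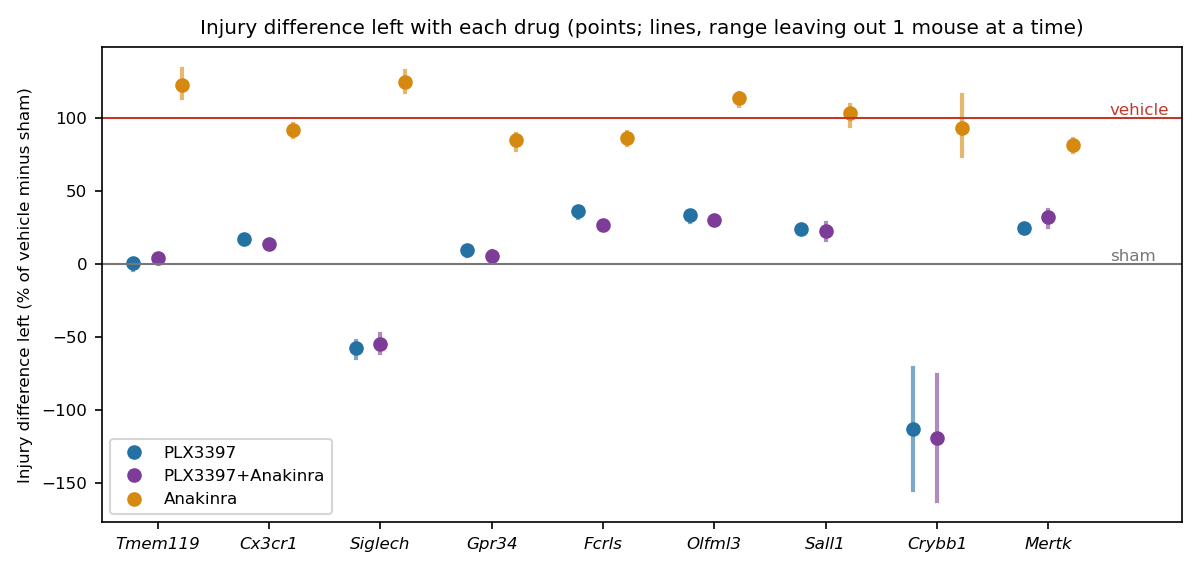
Share of the injury difference left with each drug (vertical axis, drug minus sham in percent of vehicle minus sham, group means of TPM) for the 9 genes, where 0 is the sham and 100 the vehicle level. Lines give the range when 1 mouse is left out at a time. PLX3397 and PLX3397+Anakinra lay nearer to each other than to Anakinra for each gene, from -118.9% to 36.2%, and Anakinra ranged from 81.6% to 124.7%. For Fcrls the share was 36.2% with PLX3397 and 26.7% with PLX3397+Anakinra.

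Under Anakinra alone, none of the 9 genes was called by limma against vehicle mice, compared with 0.0695% of all genes called higher and 0.0463% called lower, so that few calls were made anywhere. The share of higher genes among these calls was 60.0%, and 45.5% after rescaling by the median ratio. At an unadjusted threshold of 0.05, 1 member passed. This was Tmem119, with 68.2, 69.5, 71.5, 72.4 and 78.8 TPM. Mouse J19B of the vehicle group had more than 4 of these 5 mice, so that the groups overlapped (log2 fold change 0.20, 95% interval 0.00 to 0.39, adjusted p = 0.39). The log2 fold changes of the other members lay between -0.18 for Fcrls and 0.16 for Olfml3, with intervals that reached -0.42 to 0.07 and -0.05 to 0.37. Against sham mice, 9 of 9 genes were higher with Anakinra, against 25.1% of all genes, and 8 of 9 without sham mouse J07 or without J08, when Crybb1 was not called.

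With PLX3397+Anakinra, the 9 genes were again all lower than in vehicle mice, against 9.6% of all genes tested. None overlapped with the vehicle mice, against 6.62% of all genes, and 7 met the study's criteria, against 1.55%. The largest falls were those of Crybb1, to 25.0% of the vehicle mean (log2 fold change -1.60, SE 0.16, adjusted p = 4.3e-08), and Fcrls, to 33.1% (log2 fold change -1.58, SE 0.12, adjusted p = 4.7e-10). Compared with Anakinra alone, 9 of 9 genes were lower as well, against 8.1% of all genes. The share of higher genes among all calls of that comparison was 36.6%, and 23.1% after rescaling. Each of the 9 genes fell in both scalings.

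Adding Anakinra to PLX3397 moved none of the 9 genes past limma's test, and few genes were called at all (0.00579% higher and 0.145% lower). Fcrls had the largest difference and was the 1 member below an unadjusted threshold of 0.05. Its values with both drugs were 81.2, 86.2, 87.9, 93.1 and 110 TPM, which overlapped with the 92.3 to 161 TPM of PLX3397 alone. The log2 fold change was -0.31 (95% interval -0.56 to -0.07, adjusted p = 0.52), and without single mice it ranged from -0.39 to -0.19. The other 8 members differed by -0.10 to 0.07. In the test of whether adding Anakinra acted differently with and without PLX3397, none of the 9 genes was called by limma. Of all genes tested, 0% were called, 1395 genes were below an unadjusted threshold of 0.05, and none of the 9 genes was among these.

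Against sham mice, PLX3397+Anakinra gave the split seen with PLX3397: Cx3cr1, Fcrls, Olfml3, Sall1 and Mertk were higher, against 20.7% of all genes, and Siglech and Crybb1 were lower, against 18.1%. The Sall1 difference was small, with 14.4, 15.6, 15.9, 18.5 and 20.1 TPM against 13.2 to 14.6 TPM in sham mice. The lowest mouse, J09, lay within the sham range. Its log2 fold change was 0.25 (SE 0.08, adjusted p = 0.021), and the call was lost without PLX3397+Anakinra mouse J03 (adjusted p = 0.062), without J10 (adjusted p = 0.076) or without sham mouse J16 (adjusted p = 0.067).

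The order of the 5 groups was therefore the same in outline for all members. PLX3397 and PLX3397+Anakinra were always neighbors with an adjusted p of 0.52 or more between them, and Vehicle and Anakinra were always neighbors with an adjusted p of 0.39 or more. For 7 genes the sham group had the lowest mean. Among these, limma did not call the next group apart from sham for Tmem119 (adjusted p = 0.96) and Gpr34 (adjusted p = 0.36). For Siglech and Crybb1 the sham group lay between the low and the high pair. Vehicle was the highest group for Cx3cr1, Gpr34, Fcrls, Crybb1 and Mertk, and Anakinra was the highest for Tmem119, Siglech, Olfml3 and Sall1.

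Since the members rose by different factors, their proportions within a mouse changed with injury. The following pairs were chosen after the values were seen and are given without a test. The ratio of Fcrls to Siglech was 1.94 to 2.83 in sham mice and 10.5 to 17.6 in vehicle mice, and it stayed at 12.6 or more in all mice given PLX3397. The ratio of Tmem119 to Cx3cr1 fell from 0.68 to 0.74 in sham mice to 0.42 to 0.51 in vehicle mice. With Anakinra it was 0.55 to 0.60, between these groups and without overlap with either. Fcrls to Olfml3 was 0.81 to 0.98 in sham mice, 1.57 to 1.87 in vehicle mice and 1.30 to 1.45 with Anakinra, again apart from both. In contrast, the ratio of Cx3cr1 to Csf1r, the gene of the receptor that PLX3397 blocks, stayed between 0.54 and 0.66 over all 24 mice. Within this range its median was 0.57 in sham mice, 0.59 with vehicle, 0.58 with PLX3397 and with Anakinra, and 0.66 with PLX3397+Anakinra.

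**Figure D4:**
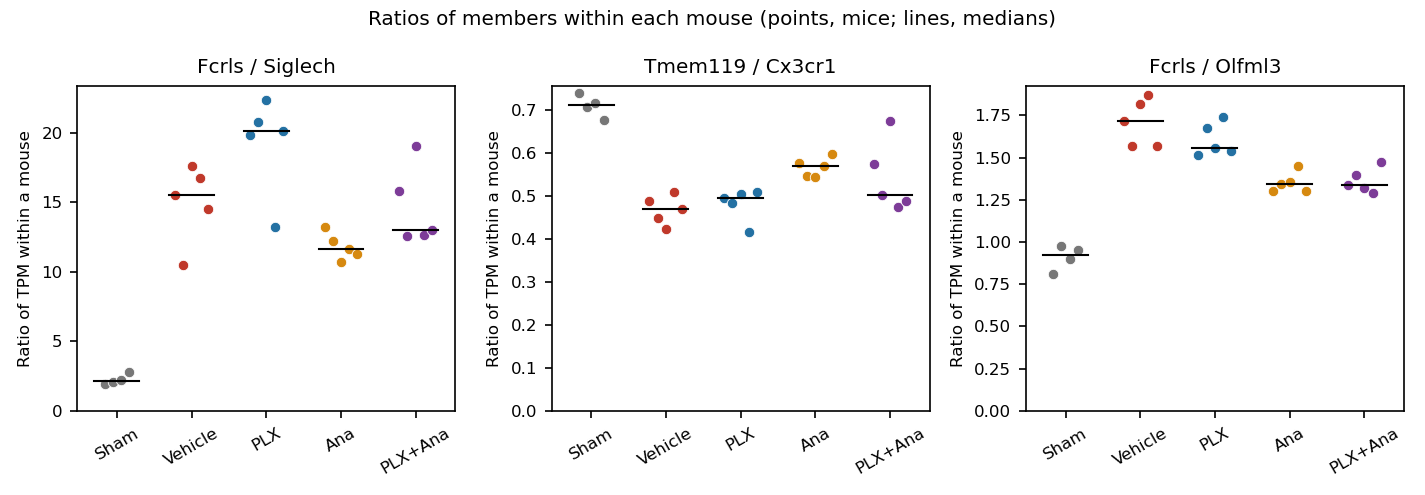
Ratio of the TPM values of 2 members within each mouse (vertical axes, starting at 0; points are mice and lines are group medians) for 3 pairs. Sham mice stood apart from vehicle mice in all 3 pairs, and the Anakinra mice did not overlap with the vehicle mice for Tmem119 to Cx3cr1 (0.55 to 0.60 against 0.42 to 0.51) and for Fcrls to Olfml3.

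Over the 24 libraries, the 36 pairs of members had a median Pearson r of 0.88 on the log2 scale, from 0.38 for Fcrls and Crybb1 to 0.98 for Fcrls and Olfml3. These correlations carry the group differences. With the group means removed, the median was 0.33 and the range -0.33 (Siglech and Mertk) to 0.90 (Fcrls and Olfml3). Single mice stood out across members: PLX3397 mouse J02 was the highest of its group for 7 of the 9 genes, and vehicle mouse J17B was the lowest of its group for 6. In J02 the 13 other homeostatic genes also summed to the highest level of the group, 854 TPM against a median of 629 TPM. For J17B this sum was the lowest of the vehicle group, 1252 TPM against a median of 1523 TPM.

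The genes outside the 9 whose pattern was most like the mean of the members, by Pearson r over the 24 libraries, were Csf1r (0.993), Slco2b1 (0.99), Vsir (0.987), Pde3b (0.985) and Bin2 (0.983). With group means removed, Pld4 (0.867), Itgam (0.843), Csf1r (0.84) and Golm1 (0.824) were among the 5 that came first. Csf1r stood at 61.2 ± 0.86 TPM in sham mice, 227 ± 22.9 TPM with vehicle and 89.1 ± 18.9 TPM with PLX3397.

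In a wider list of 13 homeostatic genes, all 13 were called higher with injury (median log2 fold change 1.14), 12 were called lower with PLX3397 (median -1.18) and with PLX3397+Anakinra (median -1.26), and 0 with Anakinra. Of all genes, 26.6% were called higher with injury, and 6.66% and 9.6% lower with PLX3397 and with PLX3397+Anakinra. Against sham mice, 22.5% of all genes were called lower after PLX3397, and 3 of the 13 were, a share near that. The 3 were the fructose transporter gene Slc2a5 (log2 fold change -0.96), the ADP receptor gene P2ry12 (-0.82) and the P-selectin ligand gene Selplg (-0.33). At the other end was Lag3 (1.60), 1 of the 8 that stayed higher, against 22.7% of all genes.

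Ligands and relatives of the members did not share one direction. Cx3cl1, which encodes fractalkine, the ligand of Cx3cr1, fell with injury from 715 ± 25.3 to 479 ± 56.3 TPM (log2 fold change -0.58, adjusted p = 1.4e-06), whereas its receptor rose. The Mertk ligand genes Gas6 and Pros1 rose with log2 fold changes of 0.46 and 1.90 and fell with PLX3397 by 0.35 and 0.42 on the log2 scale. Of the Mertk relatives, Axl rose with injury (0.94) and Tyro3 fell (-0.47). Tyrobp, the adaptor gene for Siglech, rose 11.1-fold. Abhd16a, whose enzyme makes lysophosphatidylserine, the ligand of Gpr34, fell with injury (-0.36) and was higher with PLX3397 than with vehicle (0.20). In all, 7 of 12 such genes were called higher with injury and 4 lower, against 26.6% and 27.7% of all genes tested.

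Transcription factors split likewise. Of 6, 4 were higher with injury and lower with PLX3397, among them Spi1, Irf8 and Runx1. Mef2c and Smad3 were lower with injury (-0.69 and -0.32) and not called with PLX3397 (0.09 and 0.04). Of all genes tested, 26.6% were called higher and 27.7% lower with injury, and 6.66% lower with PLX3397. Spi1, which encodes PU.1, rose 6.11-fold, and Mef2c, which neurons also express, fell to 165 TPM from 265 TPM.

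Genes of damage-associated microglia had a larger median rise with injury than the members and a smaller median fall with PLX3397. Of 14 such genes, 14 were called higher with injury (median log2 fold change 3.22) and 12 lower with PLX3397 (median -0.67), and 14 were still above sham with PLX3397 (median 2.44), compared with a median of 0.27 for the 9 members. These medians are descriptions, and the difference between the lists was not tested.

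Markers of other cells also changed with injury, and with PLX3397 they did not share one direction. Border macrophage markers were called higher for 8 and lower for 1 of 10 genes with injury and lower for 9 of 10 with PLX3397, and their sum was 19.5 to 24.6 TPM in sham, 157 to 304.5 TPM in vehicle and 72.3 to 129 TPM in PLX3397 mice. Of 8 monocyte and neutrophil markers, 6 were tested, and 6 were higher with injury and 1 lower with PLX3397, with sums of 2.67 to 4.40, 9.2 to 44.6 and 16.9 to 61.3 TPM in these groups. Astrocyte markers were called higher with injury for 7 of 8 genes, and neuron markers lower for 7 of 7 (sum 6051 to 6402 TPM in sham and 3679 to 4504 TPM in vehicle mice). With PLX3397, 2 of 7 neuron markers were called higher. Oligodendrocyte and vascular markers were each called higher with injury for 5 of 6 genes, and fibroblast markers for 6 of 6. Against vehicle, the median log2 fold change of the fibroblast markers was 1.53 with PLX3397, with 5 of 6 called higher. It was 1.76 with Anakinra, with 0 called, and 1.67 with PLX3397+Anakinra, with 5 called higher. The part of these shifts in the values of the 9 genes was not tested.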

How the data were processed

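The authors mapped paired reads of polyA-selected libraries to mm10 (GRCm38) with CLC Genomics Workbench. TPM values per gene were deposited, each library summing to 1000000. The full table of 36333 genes was used. Of the 2 other tables, 1 holds these values rounded to 3 decimals and served as an alternative, and 1 holds a filtered subset with test statistics of the authors, which was not used. No read counts were given, so that the depth per library is unknown and precision rests on the spread between mice.

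The members and gene lists were chosen with earlier results of these data known. The treatment label gave each mouse its group, and none was left out. Limma 3.58.1 in R 4.3.3 was fitted to log2(TPM + 1) of the 17267 genes that averaged 0.5 TPM or more over the libraries, with a variance trend, 1 mean per group and Benjamini-Hochberg adjustment over all genes. The fit was tested on simulated data. The share of the injury difference left used group means and no test. From the lists, ligands, relatives, adaptors and transcription factors were named, and otherwise the 2 genes with the largest and the 2 with the smallest fold change. Genes most like the members were ranked by Pearson r with their mean. Some genes that these rules name are not reported here. Start-site windows and gene positions came from RefSeq (GRCm38.p6). Figures were drawn in matplotlib 3.10.9. Alternatives were another pseudocount (0.1), no filter or a mean of at least 5 TPM, median-ratio scaling, the other table, only the compared groups, no trend, library weights, the study's criteria, a replicate block and leaving out each mouse.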

Additional observations from a re-analysis of the deposited data

Results flagged for a closer look

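In each of the 45 combinations of a member and a group, the highest and the lowest mouse were compared with the rest of the group by Dixon's criterion, which flags about 1 in 20 groups by chance, and 3 were flagged. Tmem119 in PLX3397 mouse J02 was 32.64 TPM, far above the next mouse at 24.45 TPM. Siglech in PLX3397+Anakinra mouse J09 was 4.26 TPM, far below the next at 6.742 TPM. Crybb1 in PLX3397 mouse J01 was 3.198 TPM, above the next at 2.072 TPM. All 9 genes remained lower than in vehicle mice in fits without any one of these mice.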

How the results depend on the processing

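The counts of members called were identical under every alternative run other than the study's criteria, including leaving out each mouse in turn, in 8 of the 10 comparisons: 9 for vehicle against sham, for PLX3397 and for PLX3397+Anakinra against vehicle and for PLX3397+Anakinra against Anakinra, 7 for PLX3397 against sham, and 0 for Anakinra against vehicle, for PLX3397+Anakinra against PLX3397 and in the interaction. Leaving out single mice lowered the other 2 counts, from 9 to 8 for Anakinra against sham (without sham mouse J07 or J08) and from 7 to 6 for PLX3397+Anakinra against sham (without J03, J10 or sham mouse J16), and no other alternative beside the study's criteria changed these. The study's criteria add a ratio above 2 and a difference above 4 TPM. By them, 5 members were above sham with vehicle and 5 with Anakinra, against 5.11% and 5.24% of all genes. With PLX3397 and with PLX3397+Anakinra, 2 each were above sham, against 3.58% and 2.84% of all genes. For the same 2 groups, 7 each were below vehicle, against 0.932% and 1.55%. With PLX3397+Anakinra, 7 were below Anakinra alone, against 1.55%. No fold change of a member changed sign where it was called. The calls lost were Sall1 with PLX3397+Anakinra against sham, given above, and Crybb1 with Anakinra against sham, whose log2 fold change was 0.41 without sham mouse J07 (adjusted p = 0.064) and 0.40 without J08 (adjusted p = 0.067). The Crybb1 share of the injury difference left ranged from -154.7% to -71.0% with PLX3397 and from -162.1% to -75.9% with PLX3397+Anakinra when 1 mouse was left out. The Anakinra share ranged from 81.3% to 90.5% for Fcrls and from 114.1% to 133.9% for Tmem119.

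Vehicle and PLX3397 mice share 3 animal numbers. Deviations from the group means correlated with r = 0.17, -0.13 and -0.07 in these pairs. Paired mice need not deviate alike, so that these values cannot decide whether the numbers pair the mice. Vehicle mouse J17B also shares its number with PLX3397+Anakinra mouse J17, and this pair was not checked. With these numbers as a replicate block, 9 members and 703 genes were called in the 6 mice, compared with 9 members and 747 genes without the block. Depth is unknown in TPM tables, and Crybb1 near 2 TPM is the member whose fold change the added 1 TPM understates most.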
